A study of Mus musculus with 18 samples.

Results

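The SBK genes Sbk1, Sbk2 and Sbk3 were described in RNA from mouse hearts under pressure overload. The members are the 3 rows of the deposited expression table that carry these names, of 34714 genes in the table, and all 3 met the filter on low values that 11937 genes met. Sbk2 and Sbk3 were chosen by their expression values in all 4 groups, since the drop after aortic banding was larger in Kcp knockout hearts than in wild type. Their values are therefore a description and carry no test. Sbk1 was taken up as the remaining member of the family and was tested.

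The study used C57 mice, wild type or with Kcp knocked out, to ask what the loss of Kcp does to the heart under pressure overload. The product of Kcp, kielin/chordin-like protein, is secreted and modulates BMP and TGF-beta signalling. The mice had transverse aortic constriction (TAC), in which a narrowed aortic arch puts the left ventricle under pressure, or sham surgery. There were 18 heart libraries: 4 wild-type sham (WT sham), 5 wild-type TAC (WT TAC), 4 knockout sham (KO sham) and 5 knockout TAC (KO TAC). The sources used here do not give the design of the knockout allele, the age and sex of the mice or the time from surgery to collection. The labels do not say that each library came from its own mouse, so p-values measure the spread between libraries, which may in part be technical.

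The SBK family takes its name from SH3 domain binding kinase. Its members are serine/threonine protein kinases that stand as a small group of their own among the kinases. SBK1 was first described in brain and is found in many tissues, whereas SBK2 and SBK3 transcripts are known mainly from heart, with atrial muscle a prominent site. The substrates of these kinases in heart muscle are little known.

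All members lie on mouse chromosome 7 (coordinates of GRCm38, which is mm10, from the GENCODE M21 annotation). Sbk2 (ENSMUSG00000030433, 4940512 to 4964406) and Sbk3 (ENSMUSG00000085272, 4965260 to 4971168) are on the minus strand in tandem, with 853 bases between the end of one gene and the start of the next. Sbk1 (ENSMUSG00000042978, 126272619 to 126295016) is far from them on the plus strand. The longest protein-coding transcripts of Sbk1, Sbk2 and Sbk3 have 4109, 2236 and 3152 bases, each in 4 exons. In this annotation the gene body of Sbk2 overlaps that of Ssc5d on the opposite strand, but the exons of its 5 transcripts share 0 bases with exons of Ssc5d. In the RefSeq genes, used below for neighbours, Sbk2 and Ssc5d do not overlap and lie 11.3 kb apart.

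The sequence around one annotated start of Sbk2 and of Sbk3 is shown because these genes are adjacent. They also have the same order of levels over the groups, which follows in part from how they were chosen. Shared control of the genes was not tested. The windows, from RefSeq on GRCm38.p6, hold 250 bases before and 50 after a start site, 5′ to 3′ on the minus strand, at chr7:4964357-4964656 for Sbk2 and chr7:4970912-4971211 for Sbk3. The Sbk2 window is set on the RefSeq start of the gene, 4964406, and its GENCODE transcripts start there or within 61 bases downstream. The Sbk3 window is set on the start of the GENCODE transcript of 3152 bases, at 4970961. The other GENCODE transcript of Sbk3 starts 207 bases upstream of that, within the window, and the RefSeq gene begins 10080 bases upstream, outside it. The whole Sbk3 window therefore lies inside the RefSeq gene, and the start used in these hearts was not measured. Capitals mark matches to the motifs searched. No window for Sbk1 was used.
Sbk2: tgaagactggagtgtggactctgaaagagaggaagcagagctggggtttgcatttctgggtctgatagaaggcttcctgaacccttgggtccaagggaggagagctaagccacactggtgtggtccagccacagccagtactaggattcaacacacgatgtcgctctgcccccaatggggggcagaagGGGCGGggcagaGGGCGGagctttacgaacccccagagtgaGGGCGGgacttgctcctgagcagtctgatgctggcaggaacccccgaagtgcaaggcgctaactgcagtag
Sbk3: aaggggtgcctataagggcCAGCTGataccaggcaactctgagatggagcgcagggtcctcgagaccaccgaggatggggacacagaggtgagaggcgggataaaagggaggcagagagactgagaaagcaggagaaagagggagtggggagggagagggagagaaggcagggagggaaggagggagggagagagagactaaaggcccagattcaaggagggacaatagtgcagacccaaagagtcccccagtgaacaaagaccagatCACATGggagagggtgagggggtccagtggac

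The windows had similar base composition, with 58.7% G and C for Sbk2 and 58.0% for Sbk3, and different motif content. Sbk2 held 3 copies of the GC box GGGCGG, beginning 62, 50 and 21 bases before its start site. Sbk3 held none, and the GC box occurs in 35.7% of 32851 start site windows of the same length. Sbk3 held 2 E-boxes, written CANNTG, and Sbk2 held none (72.3% of windows hold one). On either strand, neither window held the TATA box TATAAA (13.6% of windows), the GATA motif GATAAG (7.44%), the M-CAT motif CATTCC (14.7%), the T-box motif AGGTGT (13.7%) or the NKX2-5 motif TNAAGTG (11.5%). These are matches of letters in one window per gene, not binding sites.

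Some features of the libraries touch every comparison below. Kcp was at 0.794 to 1.48 FPKM (fragments scaled to transcript length and library size, the unit inferred for the table) in the wild-type libraries and at 0.494 to 0.952 in the knockout libraries of the fit, so transcript was still present. Within sham and within TAC all knockout libraries of the fit were below all wild-type libraries. KO sham replicate 2 has a library name that joins those of KO sham replicates 3 and 4. It was left out of the fit, which used 17 libraries, and its values are given separately. KO TAC replicate 4 also has a joined library name, of parts that no other library here carries, and was kept. By the level of 1 gene, Ndufb4c, the libraries also fall into 2 sets that nearly follow genotype. Ndufb4c was at 35.9 to 49.4 FPKM in all wild-type libraries except WT TAC replicate 5, and at 4.47 to 11.2 in that library and all knockout libraries. Kcp in WT TAC replicate 5 was at 1.04 FPKM, within the wild-type range. What sets these libraries apart was not tested. Except in WT TAC replicate 5, set and genotype cannot be told apart. The natriuretic peptide gene Nppa, a marker of wall stress, was at 89.3 to 266.8 FPKM in WT sham, 645.5 to 2669 in WT TAC, 83.3 to 112 in KO sham and 2191 to 7472 in KO TAC.

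The SBK genes stood at very different levels. FPKM is scaled by length, so levels can be set side by side. Sbk1 averaged 33 FPKM over the 17 libraries, above 85.9% of the genes tested. Sbk2 averaged 2.38 FPKM and Sbk3 1.32, above 22% and 10.2% of the genes. None of the 3 genes was listed at 0 in any library.

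**Figure D1:**
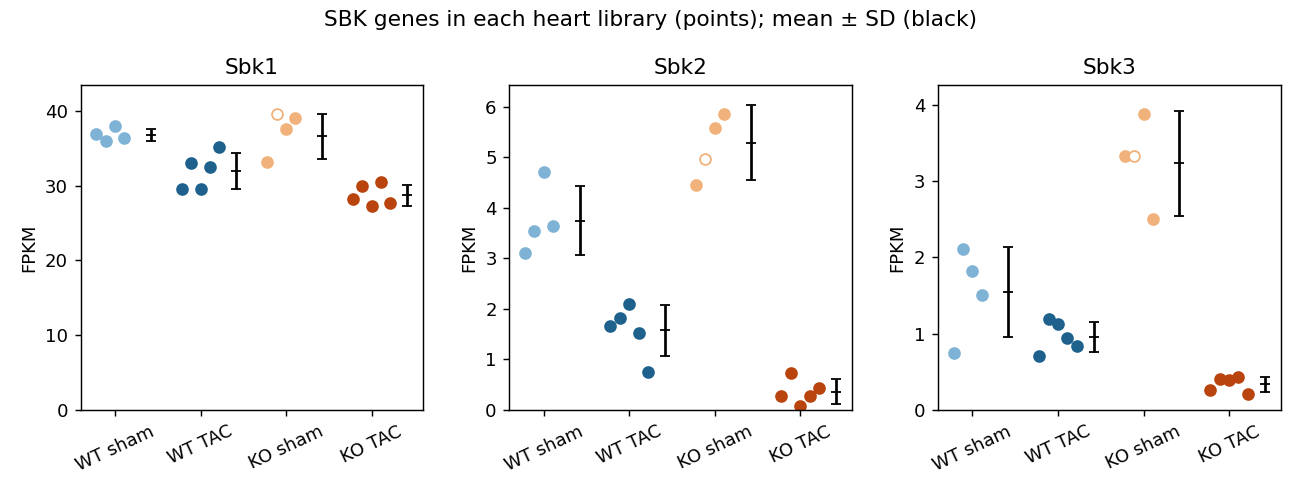
FPKM of Sbk1, Sbk2 and Sbk3 (vertical axes, each starting at 0) in every library of the 4 groups, with the group mean ± SD in black beside the points and KO sham replicate 2, outside the mean, as an open circle. Sbk2 and Sbk3 are lowest in KO TAC, where the highest Sbk2 value is 0.738 FPKM, while Sbk1 stays above 27 FPKM throughout.

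Sbk2 had its highest level in KO sham and its lowest in KO TAC. In WT sham the replicates had 3.10, 3.53, 4.70 and 3.64 FPKM. WT TAC replicates had 1.66, 1.82, 2.10, 1.52 and 0.749 FPKM. Every WT TAC library was below every WT sham library, and WT TAC replicate 5 was the lowest of them. KO sham replicates 1, 3 and 4 had 4.45, 5.58 and 5.85 FPKM, and replicate 2, outside the fit, had 4.96. In KO TAC the replicates had 0.276, 0.738, 0.0744, 0.265 and 0.424 FPKM. All KO TAC libraries were thus below all libraries of the other groups, and the nearest were KO TAC replicate 2 at 0.738 and WT TAC replicate 5 at 0.749.

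The group means of Sbk2 were 3.74 ± 0.681 FPKM in WT sham (SD, n = 4), 1.57 ± 0.507 in WT TAC (n = 5), 5.29 ± 0.74 in KO sham (n = 3) and 0.355 ± 0.247 in KO TAC (n = 5). After TAC the mean was 41.9% of sham in wild type and 6.72% of sham in knockout. On the log2(FPKM + 1) scale, which understates changes of low genes, the differences were -0.90 ± 0.16 (standard error) in wild type and -2.23 ± 0.17 in knockout. With 0.1 added in place of 1 they were -1.26 and -3.74. Of the 11937 genes, 45 had a more negative difference in wild type and 3 had one in knockout. These differences chose the gene, so the ranks are part of the choice.

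Between genotypes, Sbk2 was ordered one way in sham and the other after TAC. The KO sham mean was 1.41 times the WT sham mean, a log2 difference of 0.41 ± 0.18, and the groups overlapped. After TAC the knockout mean was 22.6% of the wild-type mean (log2 difference -0.92 ± 0.15; -1.99 with 0.1 added). The TAC differences of the genotypes differed by -1.33 ± 0.23 (-2.48 with 0.1 added). That figure is the sum of the lower level after TAC and the higher level in sham. Without WT TAC replicate 5, the wild-type difference was -0.77 and the difference between genotypes -1.46.

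Sbk3 followed the same order of groups at a lower level. WT sham replicates had 0.749, 2.11, 1.82 and 1.503 FPKM. WT TAC replicates had 0.701, 1.19, 1.13, 0.936 and 0.841 FPKM. These groups overlapped, through WT sham replicate 1, which sat within the range of WT TAC. KO sham replicates 1, 3 and 4 had 3.32, 3.87 and 2.50 FPKM, and replicate 2, outside the fit, had 3.33. KO TAC replicates had 0.262, 0.4001, 0.390, 0.431 and 0.206 FPKM. All KO sham libraries were above all wild-type libraries, and all KO TAC libraries were below all others.

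The means of Sbk3 were 1.55 ± 0.586 FPKM in WT sham (SD, n = 4), 0.958 ± 0.2 in WT TAC (n = 5), 3.23 ± 0.693 in KO sham (n = 3) and 0.338 ± 0.0981 in KO TAC (n = 5). After TAC the mean was 62% of sham in wild type and 10.4% in knockout. The log2(FPKM + 1) differences were -0.35 ± 0.14 and -1.65 ± 0.15 (-0.57 and -2.94 with 0.1 added). Without WT sham replicate 1 the wild-type difference was -0.52. In sham the knockout mean was 2.09 times the wild-type mean (log2 difference 0.75 ± 0.16), and after TAC it was 35.3% of it (-0.55 ± 0.13). With 0.1 added these genotype differences were 1.08 and -1.28. The TAC differences of the genotypes differed by -1.30 ± 0.21, or -1.13 without WT sham replicate 1, and by -2.37 with 0.1 added.

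Among the groups Sbk2 and Sbk3 had one order of means: KO sham, WT sham, WT TAC, KO TAC. The neighbours in that order that overlapped were KO sham and WT sham for Sbk2, and WT sham and WT TAC for Sbk3. Of all genes tested, 11.1% had every WT TAC library below every WT sham library, 16.0% had every KO TAC below every KO sham library, and 2.87% had every KO TAC below every WT TAC library. In sham, 7.27% had every KO library of the fit above every WT library. These shares are the background for Sbk2 and Sbk3, from which nothing is read here, since the same contrasts chose them. Because the libraries are bulk heart, fewer cells that carry these transcripts and less transcript per cell cannot be told apart.

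Sbk1 fell by a small amount after TAC in both genotypes. WT sham replicates had 36.9, 36.0, 38.0 and 36.4 FPKM, and WT TAC replicates had 29.6, 33.0, 29.6, 32.5 and 35.2. The groups did not overlap, with WT TAC replicate 5 closest to sham. KO sham replicates 1, 3 and 4 had 33.2, 37.6 and 39.1 FPKM, and replicate 2, outside the fit, had 39.5. KO TAC replicates had 28.2, 29.99, 27.3, 30.4 and 27.6, all below every KO sham library.

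In wild type, Sbk1 went from 36.8 ± 0.829 FPKM (SD, n = 4) to 32 ± 2.4 (n = 5). The log2(FPKM + 1) difference was -0.20 ± 0.06 (limma, Benjamini-Hochberg adjusted p = 0.022), and lower in 5 of 5 TAC libraries. In knockout it went from 36.6 ± 3.04 (n = 3) to 28.7 ± 1.42 (n = 5), a log2 difference of -0.34 ± 0.06 (limma, Benjamini-Hochberg adjusted p = 0.000491), again lower in 5 of 5. Of all genes, limma called 11.2% lower after TAC in wild type and 17.7% lower in knockout, and 11.1% and 16.0% had no overlap between the groups with TAC lower, so Sbk1 shares its direction and separation with many genes. The 2-sided exact permutation tests gave p = 0.0159 in wild type and 0.0357 in knockout, each the smallest the design allows, and both were 0.0635 after Benjamini-Hochberg adjustment over the 4 group comparisons. The wild-type call was lost without WT sham replicate 3, WT TAC replicate 1 or WT TAC replicate 3 (limma, Benjamini-Hochberg adjusted p = 0.0639, 0.0533 and 0.0605).

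Genotype differences in Sbk1 did not pass. In sham the log2 difference was -0.01 ± 0.07 (limma, Benjamini-Hochberg adjusted p = 0.959), and its sign turned with KO sham replicate 2 included (0.02). After TAC it was -0.15 ± 0.06 (limma, Benjamini-Hochberg adjusted p = 0.0962; exact permutation p = 0.0476, or 0.0635 adjusted over the 4 comparisons). Limma called 1.26% of genes between genotypes in sham and 11.3% after TAC. The interaction for Sbk1 was -0.14 ± 0.09 (limma, Benjamini-Hochberg adjusted p = 0.419), where 0.93% of genes were called.

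**Figure D2:**
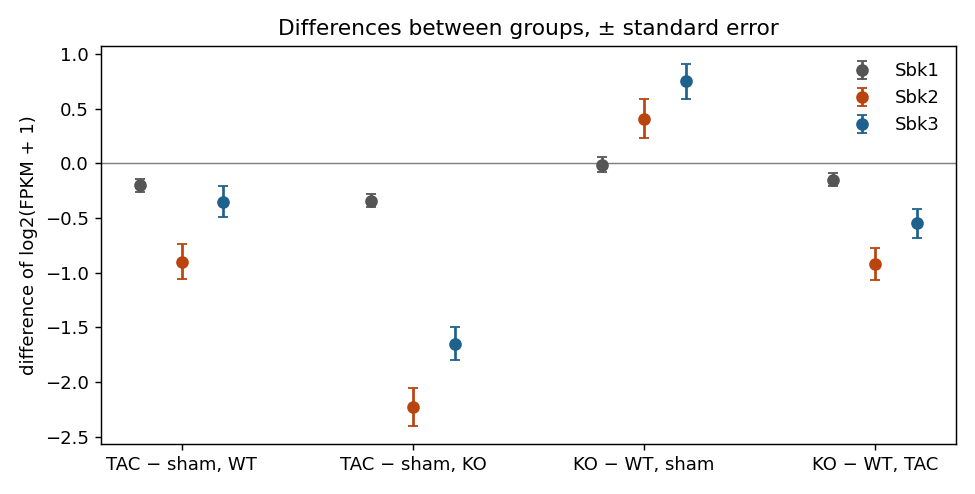
Differences of log2(FPKM + 1) between groups (vertical axis) for Sbk1, Sbk2 and Sbk3 in 4 comparisons, as points with bars of 1 standard error. After TAC all 3 lie below 0 in both genotypes, with Sbk2 at -0.90 and -2.23, while Sbk2 and Sbk3 lie above 0 between the sham groups (0.41 and 0.75).

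The levels of Sbk2 and Sbk3 were set beside the load response of each TAC heart, taken as the mean log2(FPKM + 1) of 10 genes that include Nppa, Nppb, Acta1, Myh7 and Postn. In WT TAC replicate 5 this mean was 7.21, the lowest of the TAC libraries, and the other WT TAC libraries had 8.02 to 8.51. Sbk2 was lowest in that library within its group, at 0.749 FPKM against 1.52 to 2.10. WT TAC replicate 5 is also the wild-type library with Ndufb4c at the level of the knockout libraries. KO TAC replicate 2 had the lowest load mean of the knockout TAC libraries (8.13, against 8.66 to 9.23) and their highest Sbk2, at 0.738 against 0.0744 to 0.424 FPKM. The next lowest load mean there, 8.66 in replicate 3, came with the lowest Sbk2, 0.0744 FPKM. In WT TAC the highest load mean, 8.51 in replicate 3, came with the highest Sbk2, 2.10 FPKM. Sbk3 was not at the edge of its group in WT TAC replicate 5 or KO TAC replicate 2. It was at 0.841 FPKM in WT TAC replicate 5, with the others at 0.701 to 1.19. In KO TAC replicate 2 it was at 0.4001 FPKM, with the others at 0.206 to 0.431. With 5 libraries a group, no correlation within a group was computed, and the part of load in the levels of Sbk2 and Sbk3 was not tested.

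**Figure D3:**
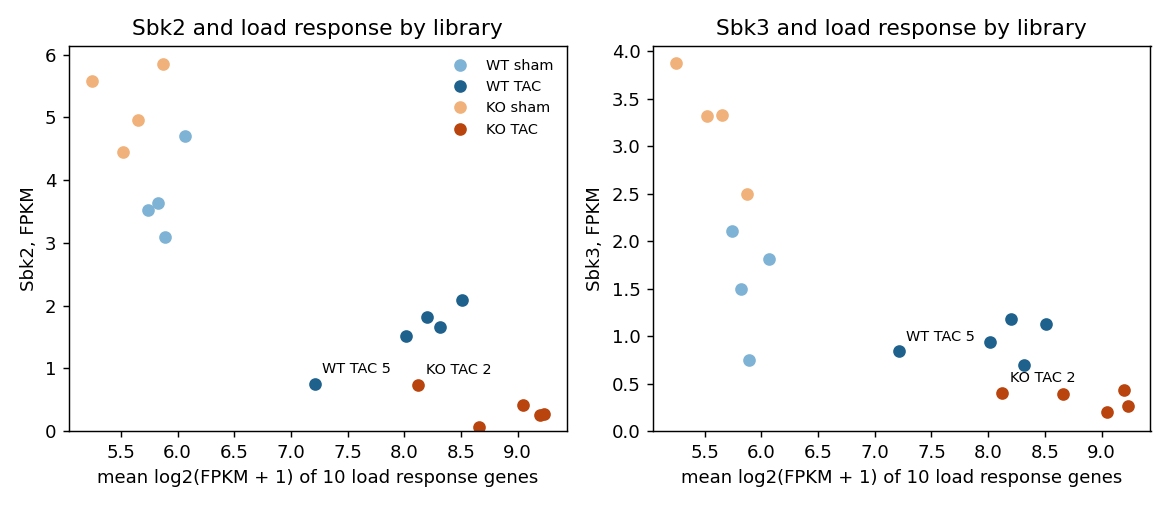
FPKM of Sbk2 (left) and Sbk3 (right) against the mean log2(FPKM + 1) of 10 load response genes, 1 point per library, all 18 shown. WT TAC replicate 5 (load mean 7.21) and KO TAC replicate 2 (8.13) have Sbk2 at 0.749 and 0.738 FPKM, and all other WT TAC libraries lie above them.

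Other protein kinases of striated muscle moved in both directions. Of 30 genes on this list 29 were tested. After TAC in wild type 4 rose and 6 fell, and in knockout 6 rose and 6 fell (limma with Benjamini-Hochberg). Of all genes, 21.9% were called in wild type (10.7% higher, 11.2% lower) and 38.8% in knockout (21.1% higher, 17.7% lower). The median log2 difference of the list was -0.026 in wild type and 0.001 in knockout, against -0.008 and 0.014 over all genes tested. Without WT sham replicate 1 or WT TAC replicate 3, 2 kinases rose in wild type.

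Camk2a, a calcium/calmodulin-dependent kinase gene, fell by 0.50 in wild type and by 0.85 in knockout on the log2 scale, from 18.5 to 12.8 and from 20.2 to 10.8 FPKM. Pdk2, which encodes a kinase that restrains pyruvate dehydrogenase, fell by 0.34 and 0.44. Tnni3k, a kinase gene of cardiomyocytes named for its binding to cardiac troponin I, fell by 0.35 and 0.54. Alpk3, an alpha-kinase gene linked to cardiomyopathy, rose by 0.39 ± 0.07 and 0.48 ± 0.08. All of these passed in both genotypes. Phkg1, Mylk4 and Pdk4 were picked out after their values were seen, as the 3 kinases with the largest change in knockout. The first, Phkg1, the muscle catalytic subunit of phosphorylase kinase, had -1.14 ± 0.25 in wild type and -1.70 ± 0.27 in knockout (limma, Benjamini-Hochberg adjusted p = 0.00435 and 0.00014). Mylk4, a myosin light chain kinase family gene, had -0.47 ± 0.19 in wild type, which did not pass, except without WT TAC replicate 5 (-0.62), and -1.28 ± 0.20 in knockout (limma, Benjamini-Hochberg adjusted p = 0.000136). Pdk4, a kinase of the same family as Pdk2, had 0.78 ± 0.39 in wild type, which did not pass, and rose by 1.38 ± 0.43 in knockout (limma, Benjamini-Hochberg adjusted p = 0.0189), a call lost without KO sham replicate 3 (0.92). Between genotypes after TAC it was higher in knockout by 1.20 ± 0.37 (limma, Benjamini-Hochberg adjusted p = 0.0495), a call lost in 10 of 17 alternatives, 7 of them leaving out 1 library (WT TAC replicates 1, 3, 4 or 5, or KO TAC replicates 1, 3 or 4; 0.98 to 1.30). In that comparison 1 kinase of the list was called higher and 1 lower, with 11.3% of all genes called. The lower was Pdk2 (-0.18 ± 0.05, limma, Benjamini-Hochberg adjusted p = 0.0184), not examined there under the alternatives. No kinase of the list passed the interaction, which only 0.93% of all genes passed.

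**Figure D4:**
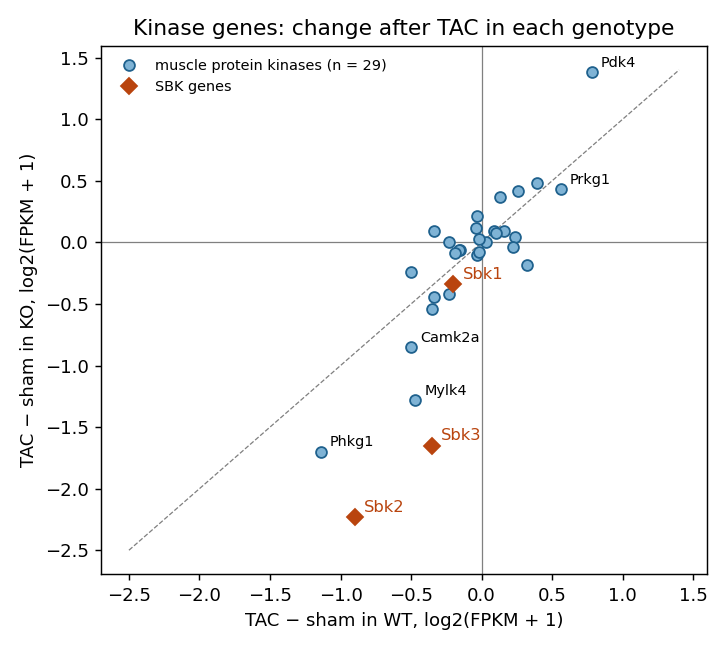
Differences of log2(FPKM + 1) after TAC in wild type (horizontal) and knockout (vertical) for 29 muscle protein kinase genes (circles) and the SBK genes (diamonds), with the line of equal change dashed. Sbk2 (-0.90, -2.23) and Sbk3 (-0.35, -1.65) lie below the line, and Phkg1 (-1.14, -1.70) and Mylk4 (-0.47, -1.28) are the circles lowest on the vertical axis.

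Since SBK2 and SBK3 transcripts are known from the atria, atrial markers were measured in the same libraries. Some defining genes were near absent and others were not. Bmp10 was listed at 0 in 17 of 18 libraries, Sln, the atrial calcium pump regulator sarcolipin, in 15, and Myl7, the atrial myosin light chain, in 12. The highest values of these genes were 0.158, 0.791 and 0.499 FPKM. Myl4, the other atrial light chain, was above 0 in all 18 libraries, at 0.186 to 2.38 FPKM, and Dkk3 was at 0.202 to 5.91 FPKM. Myl2, the ventricular light chain, was at 6222 to 9852 FPKM. The whole list of 15 atrial markers without Nppa, which also marks load, summed to 71 to 79.5 FPKM in WT sham, 53.5 to 63.4 in WT TAC, 74.6 to 81.1 in KO sham and 41.4 to 56.9 in KO TAC. Most of that sum came from a few genes. In WT sham their means were 20.5 FPKM for Kcnj3, 14.96 for Kcnj5, 12.45 for Stard10, 10.11 for Kcna5 and 9.48 for Tbx5.

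Of 11 tested atrial markers, 3 rose and 5 fell in wild type and 3 rose and 4 fell in knockout (median log2 differences -0.241 and -0.144, against -0.008 and 0.014 over all genes). Of all genes 10.7% were called higher and 11.2% lower in wild type, and 21.1% and 17.7% in knockout. Without WT sham replicate 3 or 4, 3 fell in wild type. Those that rose in both were Nppa, Dkk3 and the potassium channel gene Kcna5. Myl4 fell by 0.68 in wild type (limma, Benjamini-Hochberg adjusted p = 0.0143), from 1.37 to 0.429 FPKM, and had 0.07 ± 0.20 in knockout, which did not pass. Tbx5, a T-box factor of the atria and conduction system, fell by 0.96 and 0.72. Kcnj5, a subunit of the acetylcholine-gated potassium channel, fell by 0.61 and 0.85, and its partner Kcnj3 by 0.68 and 1.67. The wild-type call of Kcnj3 was lost in 11 of 16 alternatives, among them without each WT sham library and without each of WT TAC replicates 1 to 4 (-0.71 to -0.60). Stard10, a lipid transfer protein gene, fell by 0.69 and 1.74. It was the only atrial marker that passed the interaction, as 0.93% of all genes did (-1.05 ± 0.20, limma, Benjamini-Hochberg adjusted p = 0.0264). That call was lost without WT sham replicate 1 or 3, WT TAC replicate 5, or KO sham replicate 1 or 3 (limma, Benjamini-Hochberg adjusted p = 0.0569, 0.06, 0.0528, 0.0693 and 0.0611). Stard10 was at 12.4 FPKM in WT sham, 7.29 in WT TAC, 15.8 in KO sham and 4.11 in KO TAC, the order seen for Sbk2. That order of means was not particular to Stard10. Kcnj3, Kcnj5 and the kinase genes Camk2a, Phkg1 and Mylk4 had it too. So did the adult cardiomyocyte markers Tnni3, Myh6 and Pln. Tnni3 was at 4473 FPKM in WT sham, 3332 in WT TAC, 5085 in KO sham and 2828 in KO TAC. The share of all genes with this order was not counted. The part of these markers in the levels of Sbk2 and Sbk3 was not tested.

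Markers of other cells were measured as well. The 20 adult cardiomyocyte markers summed to 54501 to 56123 FPKM in WT sham and 53103 to 55669 in WT TAC, and to 56760 to 60457 in KO sham and 47406 to 52910 in KO TAC. Of these 20 genes, 8 rose and 7 fell in wild type, and 4 rose and 11 fell in knockout. In the interaction 1 of the 20 passed, as 0.93% of all genes did. This was Tnni3 (-0.42 ± 0.10, limma, Benjamini-Hochberg adjusted p = 0.0432), whose call was not examined under the alternatives. The shares of all genes called are the background for each list counted here. They were 10.7% higher and 11.2% lower in wild type, and 21.1% higher and 17.7% lower in knockout. The 8 macrophage markers summed to 188 to 315 and 240 to 374 FPKM in wild-type sham and TAC, and to 218 to 242 and 304 to 416 in knockout sham and TAC. Skeletal muscle markers were almost absent, with a sum of 1.16 to 4.39 FPKM over the libraries of the fit and Myh4 listed at 0 in all 18. Of the 8 fibroblast markers 2 rose and 1 fell in wild type, and 5 rose and 1 fell in knockout. In wild type no endothelial or macrophage marker passed, and in knockout 1 of 8 and 5 of 8 rose. Of 8 smooth muscle and pericyte markers 1 fell in each genotype. Of 9 tested ventricular markers 1 rose in each genotype, while 4 fell in wild type and 5 in knockout. Of 5 tested neuron and Schwann cell markers 1 fell in each genotype and 2 rose in knockout. The one tested skeletal muscle marker, Tnni2, fell in both genotypes. Among the load genes 9 of 10 rose in wild type and 10 of 10 in knockout. The part of these cells in the SBK results was not tested.

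Regulators of cardiac transcription also changed in both directions. Of 21 genes, all tested, 6 rose and 4 fell in wild type, and 3 rose and 8 fell in knockout (median log2 differences -0.08 and -0.137, against -0.008 and 0.014 over all genes). The shares of all genes called were 10.7% higher and 11.2% lower in wild type, and 21.1% higher and 17.7% lower in knockout. Srf, a factor of muscle and immediate early genes, rose by 0.32 ± 0.05 and 0.52 ± 0.05, and the T-box gene Tbx20 by 0.37 ± 0.10 and 0.79 ± 0.11. The retinoid receptor gene Rxra fell by 0.27 and 0.50. Ppargc1a, the metabolic coactivator PGC-1 alpha, rose by 0.87 ± 0.21 in wild type and had 0.38 ± 0.23 in knockout, which did not pass. Without WT sham replicate 2 or WT TAC replicate 3, 2 of these genes fell in wild type. None of the 21 genes passed the interaction, where 0.93% of all genes did.

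The neighbours of Sbk2 and Sbk3 on chromosome 7 moved in both directions. Ssc5d, a scavenger receptor family gene on the Sbk2 side, rose by 0.75 ± 0.12 in wild type and 1.11 ± 0.13 in knockout (limma, Benjamini-Hochberg adjusted p = 0.00033 and 4.84e-06). Nat14, the next gene, had 0.04 ± 0.13 and -0.13 ± 0.15, which did not pass. On the Sbk3 side the zinc finger gene Zfp579 fell by 0.30 and 0.29. Its calls were lost without WT sham replicate 3 or 4 or WT TAC replicate 2 in wild type, and without KO sham replicate 3 or 4 or any KO TAC library except replicate 2 in knockout. Next to it, Fiz1 had -0.04 ± 0.06 in wild type, which did not pass, and fell by 0.24 in knockout. No neighbour passed the interaction, against 0.93% of all genes. Around Sbk1, the nuclear export gene Xpo6 fell by 0.32 in wild type and had -0.18 ± 0.09 in knockout, which did not pass. Neither Gsg1l nor Spns1 passed in either genotype. Lat, the other neighbour, did not meet the filter on low values.

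**Figure D5:**
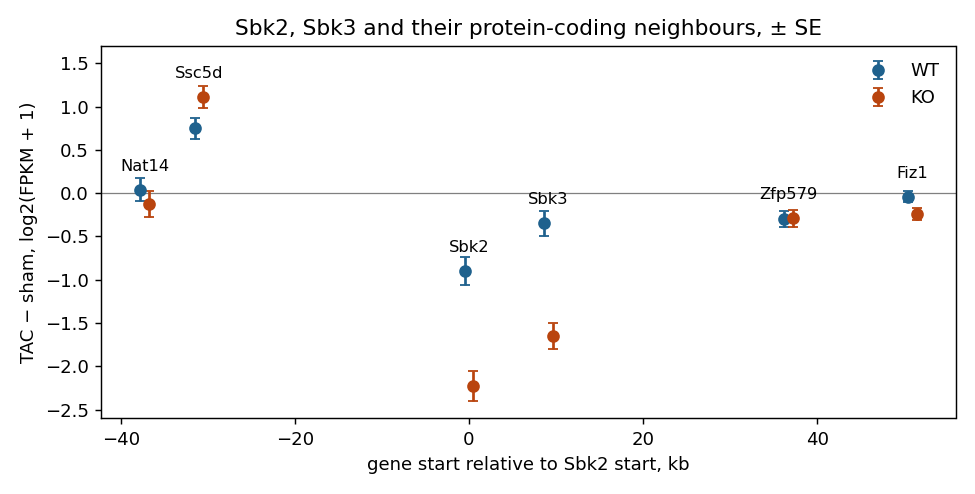
Difference of log2(FPKM + 1) after TAC (points, bars of 1 standard error) in wild type and knockout for Sbk2, Sbk3 and their protein-coding neighbours. Genes are placed by their lowest RefSeq coordinate relative to that of Sbk2 in kb, with the genotypes drawn slightly apart. For Sbk2 and Sbk3, on the minus strand, this coordinate is the end of the gene, although the axis calls it the start. Sbk2 and Sbk3 lie below 0, Ssc5d lies above 0 at 0.75 and 1.11, and the other neighbours stay between -0.30 and 0.04.

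The genes most like each member were found by Pearson's r on log2(FPKM + 1) over the 17 libraries, which share the sham to TAC difference. Closest to Sbk2 were Fbxo31 (0.95), Prodh (0.95), Pex11a (0.949), Slc2a12 (0.947) and Stard10 (0.945). Prodh encodes proline dehydrogenase and Pex11a a peroxisome division protein. Closest to Sbk3 were Usf2 (0.928), Aqp4 (0.926), Hcn4 (0.924), Rgs7 (0.92) and Adra1b (0.92), the last being the alpha-1B adrenergic receptor and Hcn4 the pacemaker channel. Closest to Sbk1 were Isoc2a (0.952), Gpcpd1 (0.935), the adult myosin gene Myh6 (0.929), Clcn3 (0.929) and Dgat2 (0.925). The leading genes of the 3 members did not coincide.

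Sbk2 and Sbk3 correlated at 0.899 over the 17 libraries, and Sbk1 at 0.84 with Sbk2 and 0.751 with Sbk3. Once each group mean was subtracted, r was 0.257 between Sbk2 and Sbk3, -0.045 between Sbk1 and Sbk2 and -0.011 between Sbk1 and Sbk3. Most of the likeness between the members was thus between the groups, not among the libraries of a group. After that subtraction the genes closest to Sbk2 were Srpx (0.838), Pirb, Fkbpl, Ttc4 and Snrnp27. Med27 (0.825), Mars2, Aqp4, Ncdn and Fgf7 were closest to Sbk3, and Aqp4, the water channel aquaporin-4, was near it by both measures. Isoc2a (0.768) was the closest to Sbk1 both ways, followed here by Mxd4, Twistnb, Ints12 and Setmar. Aqp4 was at 1.32 ± 0.548 FPKM in WT sham, 0.396 ± 0.0956 in WT TAC, 2.11 ± 0.81 in KO sham and 0.26 ± 0.207 in KO TAC (SD, n = 4, 5, 3 and 5). Rgs7, a regulator of G protein signalling, was at 0.776 ± 0.0748, 0.412 ± 0.0831, 1.73 ± 0.565 and 0.202 ± 0.0989 FPKM in the same order. These genes were chosen for their likeness, so their values are a description.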

How the data were processed

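RNA of 18 mouse heart libraries was sequenced after a SMARTER mRNA-seq preparation, per the labels' protocols. The authors deposited 1 table of 34714 genes with 1 column per library. Its header names no unit. The deposited values were taken as FPKM, scaled by the authors to transcript length and library size, because they are not whole, sum to different totals and give a near constant total once multiplied by transcript length. Low values are not multiples of a step, so depth is unknown and no counting interval is given. The build is mm10, per the submitters' processing notes, and no aligner or counter is named in the sources used here. All 34714 symbols matched the RefSeq table of GRCm38.p6, used for neighbours and start site windows.

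Genes that reached 1 FPKM in 3 or more libraries were fitted, as log2(FPKM + 1), with limma 3.58.1 in R 4.3.3 (a mean per group, 17 libraries, trend and robust moderation), with Benjamini-Hochberg adjustment over all genes tested and a threshold of 0.05. KO sham replicate 2 was left out. Sbk1 also had 2-sided exact permutation tests. The steps were tested on simulated data. Named genes were the members, Kcp, Nppa and Nppb, 2 neighbours on each side and the 5 genes most like each member. From the kinase, atrial and regulator lists, the 3 genes with the smallest p after TAC in each genotype were named. Some other genes of the lists are named after their values were seen. The members and the 12 lists were chosen with earlier results of these data known. Alternatives are in the closing section.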

Additional observations from a re-analysis of the deposited data

How the results depend on the processing

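Direction and call of the Sbk1 results held under most alternatives, and the exceptions are given below. Sbk2 and Sbk3 carry no call. Their values under the alternatives are a description, since the same differences chose them. With 0.1 added in place of 1, Sbk2 had -1.26 and -3.74 after TAC in wild type and knockout, -1.99 between genotypes after TAC and -2.48 in the interaction. Sbk3 had -2.94 after TAC in knockout, 1.08 and -1.28 between genotypes in sham and after TAC, and -2.37 in the interaction. Leaving out each library in turn gave Sbk1 -0.23 to -0.17 in wild type (3 of 9 lost the call), -0.40 to -0.29 in knockout, and -0.06 to 0.06 between sham groups, with 0.02 when all 18 libraries were used. The sign turned without WT sham replicate 3 (0) or KO sham replicate 1 (0.06). For Sbk2 the same ranges were -0.97 to -0.77 in wild type, -2.33 to -2.15 in knockout and -1.46 to -1.25 in the interaction, and for Sbk3 -0.52 to -0.25, -1.78 to -1.54 and -1.43 to -1.13.

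Counts over all genes moved more. The interaction passed for 111 genes, 300 with all 18 libraries, 16 with no filter on low values, 192 with median-ratio scaling, 345 with the replicate number as a block, 460 without WT TAC replicate 5 and KO TAC replicate 2, and 7 (without KO sham replicate 1) to 597 (without KO TAC replicate 2) with 1 library left out. Between sham groups 151 genes passed, 227 with all 18 libraries, 206 without WT TAC replicate 5 and KO TAC replicate 2, and 50 (without KO sham replicate 3) to 147 with 1 left out. Between TAC groups 1350 passed, 814 with only the groups compared and 663 (without KO TAC replicate 1) to 1833 (without KO TAC replicate 2) with 1 left out. Replicate numbers did not pair the libraries, since the deviations of same-numbered libraries correlated from -0.238 to 0.157. The replicate block lowered the regulators that fell in wild type from 4 to 2 and changed no call of Sbk1, whose values were -0.21 and -0.36 after TAC. With 1 library left out, muscle kinases that rose in wild type were 2 to 4, atrial markers that fell there 3 to 5, and regulators that fell there 2 to 4. Among genes named from lists and neighbours, the interaction of Stard10 lost its call in 6 of its alternatives, Kcnj3 in wild type in 11, Zfp579 in 4 in wild type and 8 in knockout, and Pdk4 in 2 in knockout and 10 between TAC groups. Myl4 in knockout turned to -0.03 with all 18 libraries or without KO sham replicate 4, with a range of -0.03 to 0.15 with 1 library left out. Fiz1 in wild type ranged from -0.08 to 0.01 with 1 library left out, turning sign without WT sham replicate 2 (0.01) or 4 (0). Mylk4 in wild type gained a call in 2 and Xpo6 in knockout in 1. The cause was not tested. KO TAC values of Sbk2 and Sbk3, under 1 FPKM and of unknown depth, limit the precision of their fold changes.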
